A study of Mus musculus with 67 samples.

Results

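The regions described here are the centromere-proximal 10 Mb of the 19 mouse autosomes. On each autosome they comprise the 200-kb bins that end within 10 Mb of the first bin with a value in most cells, which placed every region at positions 2600001 to 12600000 of mm9, the build named in the submitters' processing notes. The rule used position alone. It gave 950 of the 13103 deposited bins, 50 on each chromosome, or 190 of the 2403 autosomal windows of 1 Mb. The bins overlap their neighbours, and the placement of the reads behind a bin is known here to within about 1 Mb.

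Mouse autosomes are telocentric, meaning that the centromere sits at 1 end of the chromosome and nearly all of the sequence lies on a single arm. The centromere itself and the satellite repeats beside it are not part of the assembled sequence, so these regions are the first unique sequence next to it. The kinetochore, which attaches a chromosome to the spindle, forms on the centromere, and a chromosome fragment that has lost its centromere has no such attachment. A gain or loss that includes the proximal region therefore touches the end that carries the centromere, and one that spares it touches only the arm beyond.

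The measurements are DNA copy number along the genome in 67 single cells from mouse embryos labelled BDF1, cultured in vitro in CZB medium and taken apart at the 8-cell stage. The assay, scRepli-seq, amplifies the genome of 1 cell and counts sequencing reads along it. Embryos had been kept with aphidicolin (75 ng/ml), a drug that blocks the polymerases of DNA replication, or with its solvent DMSO, at the 4-cell stage. DMSO held 20 cells of 3 embryos (4, 8 and 8 cells) and Aphidicolin held 47 cells of 6 embryos, 5 with 8 cells and 1 with 7. BDF1 is the name of hybrids of the strains C57BL/6 and DBA/2, and which generation was hybrid is not stated in the sources used here. Embryos are numbered within a treatment and cells by library number, and the embryo was the replicate.

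Cells held between 0.739 and 2.83 M reads, and the median proximal region held 8030 reads, which puts the error from counting alone at 0.02 (log2). Embryo means were 2.21 ± 0.115 M reads per cell in DMSO (SD, n = 3) and 1.96 ± 0.0949 M in Aphidicolin (SD, n = 6). All 67 cells carried the authors' pass mark and shared 1 collection window. 2 features moved with treatment over the whole series. Their part in the results below was not tested, beyond repeating the calls without removal of the copy profile that all cells share. The X chromosome lay at embryo means of -0.28 to -0.21 relative to the autosomes (log2) in DMSO and of -2.98 to -0.93 in Aphidicolin, and the copy number of X therefore cannot be told apart from treatment. The lowest mean, of Aphidicolin 6, included cells 69 and 72 at -8.35 and -9.44. The median cell was at -0.24 in DMSO and at -1.03 in Aphidicolin. The weight of the copy profile that all cells share, which was removed before any call, was 1.23 ± 0.0995 in DMSO embryos (SD, n = 3) and 0.819 ± 0.291 in Aphidicolin embryos (SD, n = 6).

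The first question was how often the proximal regions departed from 2 copies. In Aphidicolin cells 129 of 893 proximal regions were altered (14.4%, exact 95% interval 12.2 to 16.9%), against a background of 25.5% of all autosomal windows in the same cells. Gains and losses were about equal, with 63 gained and 66 lost. In DMSO cells 1 of 380 proximal regions was altered (0.263%, background 0.377%). The size of this contrast rests on removing the profile that the cells share. With the values as deposited, the altered share of proximal regions by embryo means was 18.9% in Aphidicolin (n = 6) and 8.99% in DMSO (n = 3). A region was altered when the segment that held it lay above 0.32 or below -0.42 on the log2 scale, the levels halfway in copies from 2 to 3 and from 2 to 1, and was otherwise called kept. Since a segment spans at least 10 Mb, all 10 windows of a region share a call.

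**Figure D1:**
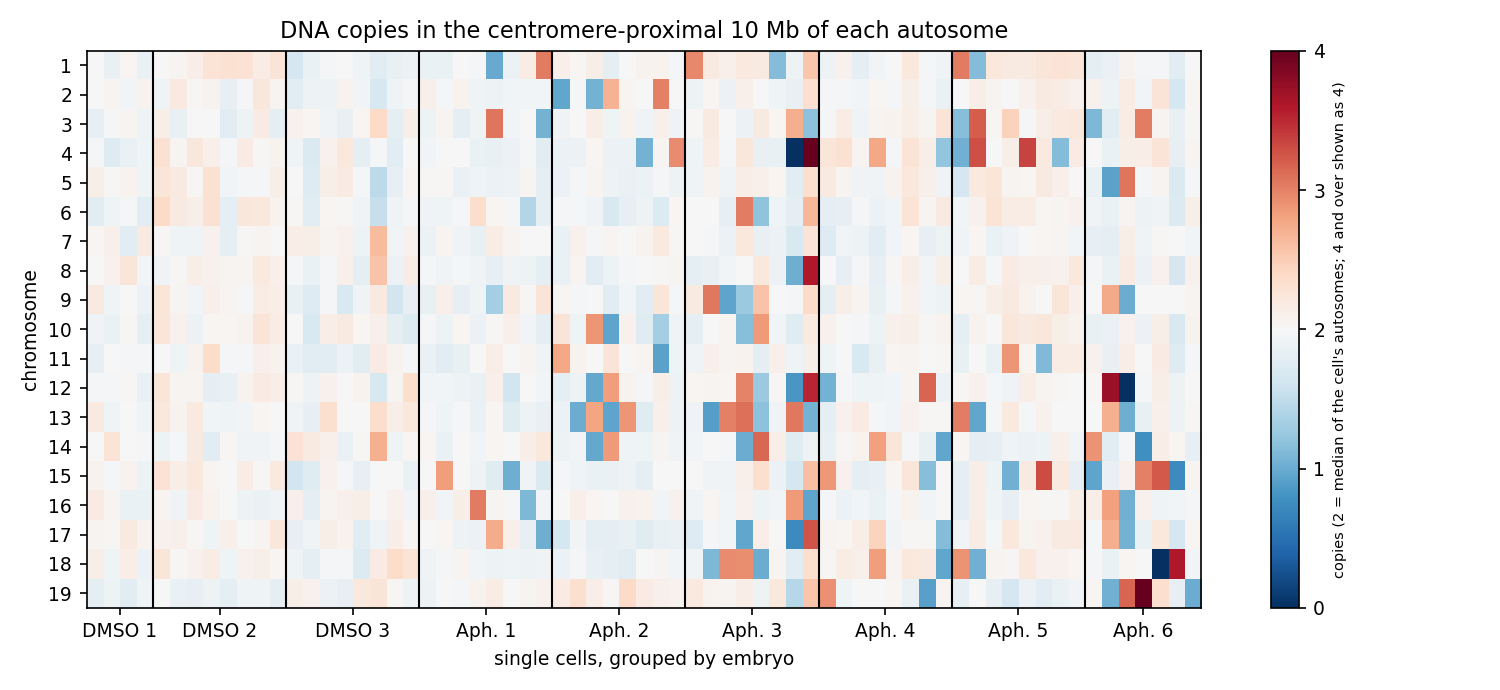
DNA copies (colour scale, 2 = the median of the cell's autosomes, red above and blue below) in the proximal 10 Mb of each of the 19 autosomes (rows) in each of the 67 cells (columns), with black lines between embryos. DMSO columns hold 1 gained region. Aphidicolin columns hold 63 gained and 66 lost regions, often as a red and a blue cell in the same row of an embryo.

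Altered regions were spread over most cells. Of the Aphidicolin cells, 39 of 47 (83.0%, exact interval 69.2 to 92.4%) had at least 1 altered proximal region, against 1 of 20 DMSO cells. Per embryo, the share of altered proximal regions was 7.89%, 13.2%, 25.7%, 9.21%, 11.8% and 19.5% in Aphidicolin 1 to 6, and 0%, 0% and 0.658% in DMSO 1 to 3. The treatments did not overlap in this share, and Aphidicolin 3 was the highest. The intervals given here for shares cover counting error only and ignore that the cells of an embryo are related, so they may be too narrow.

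The median copy states were close to whole numbers, while single regions varied around them. Gained proximal regions had a median level of 0.56 on the log2 scale, or 2.95 copies (n = 63, range 0.17 to 1.22), and lost regions one of -0.96, or 1.03 copies (n = 66, range -7.79 to -0.26). Since calls follow the segment, some called regions lay inside the call limits and some kept ones beyond them. Of the 66 lost proximal regions, 3 were near 0 copies, below -3 on the log2 scale. The counts were 12 of 116 lost regions in the middle of the chromosomes and 23 of 156 at the distal ends. Kept proximal regions had a median of 1.99 copies in Aphidicolin cells (n = 764, log2 -0.31 to 0.38) and of 2.01 copies in DMSO cells (n = 379, log2 -0.43 to 0.44). On chromosomes without any call, the SD of the level was 0.0905 at proximal, 0.0832 at middle and 0.0868 at distal regions of Aphidicolin cells, and 0.113, 0.103 and 0.106 in DMSO cells. In both treatments this spread was slightly larger at proximal regions than at the others.

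Proximal regions were altered less often than the rest of the same chromosomes. Each embryo was compared with itself at the proximal 10 Mb, the 10 Mb around the chromosome's middle and the last 10 Mb at its distal end. In Aphidicolin embryos the altered share was 14.6% ± 6.79 at proximal, 26.03% ± 12.5 at middle and 33.99% ± 8.55 at distal regions (SD, n = 6). Embryo by embryo, the distal shares were 32.2%, 26.3%, 44.7%, 23.03%, 35.5% and 42.1%, and the middle shares 15.8%, 14.5%, 42.8%, 16.4%, 27.6% and 39.1%. In each of the 6 embryos the proximal share was the lowest of the 3.

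**Figure D2:**
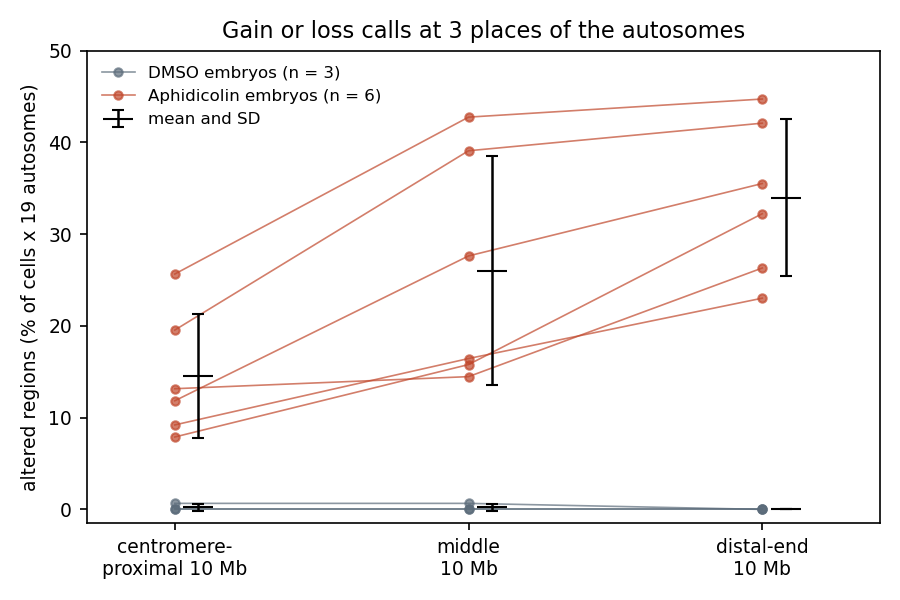
Share of region and cell combinations called gained or lost (y axis, %) at 3 places of the autosomes (x axis). Each line is 1 embryo, and the black marks give the mean and SD of 3 DMSO and 6 Aphidicolin embryos. All 6 Aphidicolin lines rise from the proximal to the distal end (means 14.6%, 26.03% and 33.99%), and all DMSO lines stay under 1%.

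The proximal share was 19.4 points below the distal share by embryo means, a difference of -19.4 ± 4.96 (SD, n = 6, range -24.3 to -13.2, exact two-sided permutation over embryos p = 0.03125, adjusted p = 0.03125 over 4 tests). Against the middle the difference was -11.5 ± 7.06 points (SD, n = 6, range -19.5 to -1.32, exact two-sided permutation p = 0.03125, adjusted p = 0.03125). Both p-values are the smallest that 6 embryos allow, and both differences had the same sign in 6 of 6. With the values as deposited, without removal of the shared profile, the proximal share was the lowest in DMSO embryos as well, with means of 8.99% altered at proximal, 25.9% at middle and 24.3% at distal regions (n = 3). The proximal to middle difference of Aphidicolin embryos was then -12.3 points with an adjusted p of 0.0625 by the exact permutation test (0.03125 to 0.0625 over the alternatives that kept all embryos).

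The share of altered windows climbed with distance from the centromeric end. From 14.6% over the first 10 Mb, the mean of the 6 Aphidicolin embryos reached 16.1% in the window at 11 Mb, 18.2% at 20 Mb, 19.3% at 30 Mb, 21.1% at 40 Mb and 23.9% ± 10.3 at 50 Mb (SD, n = 6). Counted back from the distal end, the mean was 33.99% in the last 10 Mb, 30.7% at 30 Mb and 27.7% at 50 Mb. The flat stretch over each terminal 10 Mb follows from the minimum length of a segment. The rise went on beyond the border of the proximal region, whose width is a choice of position and not a boundary seen in the data.

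**Figure D3:**
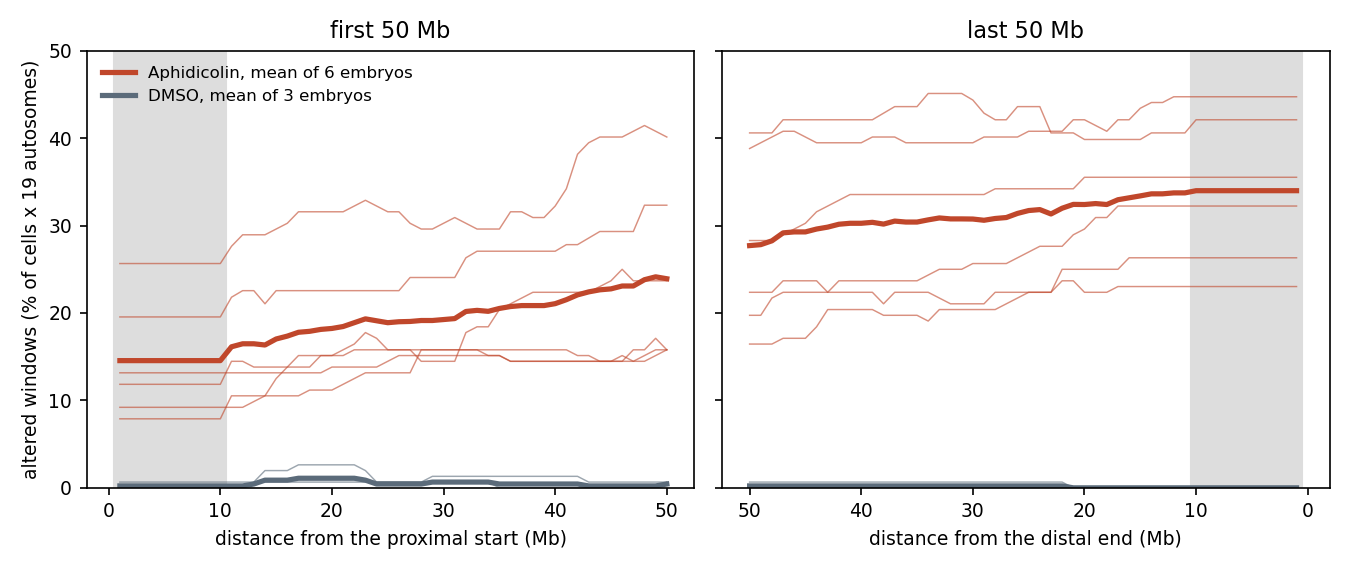
Share of windows altered (y axis, % of cells times 19 autosomes) against the distance in Mb from the proximal start (left) and from the distal end (right), with thin lines for embryos and thick lines for means of 6 Aphidicolin and 3 DMSO embryos. Grey marks the terminal 10 Mb. The Aphidicolin mean climbs from 14.6% at the proximal end to 33.99% at the distal end.

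The next question was what the proximal region did on chromosomes altered only in part. A chromosome counted as altered whole when windows of 1 direction covered at least 90% of it, and as altered in part otherwise. Aphidicolin cells held 268 chromosomes altered in part, and their proximal region was kept at 2 copies in 230 of them (85.8%, exact interval 81.1 to 89.8%). The distal end was kept in 64 (23.9%, exact interval 18.9 to 29.4%). DMSO cells held 7 chromosomes altered in part and none altered whole.

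Among the 268, the usual form was a kept proximal region with an altered distal end, in 190 chromosomes (70.9%), of which 92 were gained and 98 lost distally. Both ends were kept around an altered interior in 40 (14.9%). The reverse form, an altered proximal region with a kept distal end, was found in 24 (8.96%), 11 gained and 13 lost proximally. The ends changed in opposite directions in 12 (4.48%) and in the same direction in 2 (0.746%). At least 1 chromosome with a kept proximal and an altered distal region was present in 42 of 47 Aphidicolin cells (89.4%, exact interval 76.9 to 96.5%) and in 0 of 20 DMSO cells (exact upper limit 16.8%).

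Per embryo, the proximal region was kept in 86.4%, 82.4%, 76.7%, 100%, 87.2% and 88% of the chromosomes altered in part in Aphidicolin 1 to 6. The distal end was kept in 11.4%, 23.5%, 28.3%, 36.4%, 17.02% and 28% of them. The groups of values did not overlap, with means of 86.8% ± 7.73 and 24.1% ± 8.90 (SD, n = 6). Their difference was 62.7 ± 9.35 points (SD, n = 6, range 48.3 to 75, exact two-sided permutation p = 0.03125, adjusted p = 0.03125), in the same direction in 6 of 6 embryos. With the values as deposited it was 40.2 points (adjusted p = 0.0417 by the exact permutation test, 0.03125 to 0.0417 over the alternatives that kept all embryos). Every chromosome altered whole had an altered distal end, and only 7 of these 98 kept the proximal region. The difference in kept share therefore largely restates the proximal to distal difference in altered share, over fewer chromosomes. It is not separate support for it.

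Where a kept proximal segment ended in a break, its length varied widely. Over 237 such segments the median was 53 Mb (quartiles 31 and 84 Mb, range 10 to 177 Mb), and 40 of them (16.9%) were 20 Mb or shorter. Gained proximal segments that ended in a break had a median length of 49 Mb (n = 26) and lost ones of 35 Mb (n = 36). Breaks nearer than 10 Mb to the start could not be called.

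The 5 kept regions with the most altered sequence beyond them had kept pieces of 14 to 34 Mb. On chromosome 1 of cells 68 and 69, both of Aphidicolin 6, the first 14 Mb were kept at proximal levels of 1.86 and 2.08 copies while 169 Mb were altered. The distal ends of this pair were at 1.92 and 2.20 copies. On chromosome 2 of cells 53 and 55, both of Aphidicolin 4, the first 18 Mb were kept at 1.95 and 1.98 proximal copies beside 161 Mb of altered sequence. The distal ends of these chromosomes 2 were at 2.70 and 0.897 copies. On chromosome 2 of cell 59, of Aphidicolin 5, the kept part was 34 Mb with 2.01 proximal copies, and 145 Mb were altered up to a distal end at 3.30 copies. In each of the 2 pairs of cells the kept piece ended at the same window.

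With the shared profile removed, an altered proximal region usually belonged to a change over at least 90% of the chromosome. Of the 129 altered proximal regions of Aphidicolin cells, 91 (70.5%, exact interval 61.9 to 78.2%) lay on chromosomes altered whole, 44 gained and 47 lost. Of 302 altered distal ends, 98 (32.5%) did. Per embryo the proximal figure was 50%, 70%, 64.1%, 100%, 66.7% and 76.9%, with a mean of 71.3% ± 16.6 (SD, n = 6). With the values as deposited the mean was 44.9%, so this form was then not the usual one. A chromosome altered whole could also hold a break between levels, as on chromosome 18 of cell 71, from 0.01 to 1.05 copies. Of the altered proximal segments, 62 ended in a break, on chromosomes altered whole or in part. An altered distal end stood beside a kept proximal region in 197 of 302 cases (65.2%), and an altered proximal region beside a kept distal end in 24 of 129 (18.6%). These contrasts between the ends largely restate that fewer proximal regions (129) than distal ends (302) were altered. They are not separate support for that difference.

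The 19 regions differed in how often they were altered, from 0 to 14 of the 47 Aphidicolin cells, with a median of 7. The proximal region of chromosome 13 was altered in 14 cells (29.8%, exact interval 17.3 to 44.9%), 7 gained at a median of 3.01 copies and 7 lost at 1.00 copies. These cells came from 4 embryos, with 0, 4, 6, 0, 2 and 2 altered cells in Aphidicolin 1 to 6. In 8 of the 14 the whole chromosome was altered. The proximal regions of chromosomes 4, 12, 15 and 18 were each altered in 10 cells, 5 gained and 5 lost, in 4 embryos each.

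Those 4 regions differed in the form of the change. On chromosome 18 all 10 altered proximal regions lay on chromosomes altered whole, and on chromosome 12 it was 8 of 10. On chromosome 15 the count was 6 of 10 and on chromosome 4 it was 4 of 10, so that 6 of the chromosome 4 regions belonged to a change of part of the arm. The differences between regions were not tested.

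At the other extreme, the proximal region of chromosome 7 was altered in 0 of 47 cells, which allows a share of up to 7.55% (exact upper limit). Its level stayed between 1.70 and 2.25 copies in all 47 cells. The distal end of chromosome 7 was nevertheless altered in 17 cells of 5 embryos, 8 gained and 9 lost, and the proximal region was kept in all 17. The first segment of these chromosomes ran for 10 to 129 Mb, with a median of 56 Mb. This region also held 7 of the 11 missing bin values of the 19 regions, and its median of 8075 reads was near the 8213 of the median region.

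Few alterations were also found in the proximal regions of chromosome 8 (2 cells), chromosome 5 (3 cells) and chromosomes 2, 6 and 11 (4 cells each). Chromosome 5 was rarely altered anywhere, with its middle and its distal end each altered in 4 cells. Chromosomes 2, 6 and 11 behaved differently, since their distal ends were altered in 20, 18 and 19 cells, of which 18, 14 and 15 had a kept proximal region. Chromosome 3 had the most such cells, 22 of the 29 with an altered distal end, and chromosome 5 the fewest with 2. The other 8 regions were altered in between 6 and 9 cells.

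**Figure D4:**
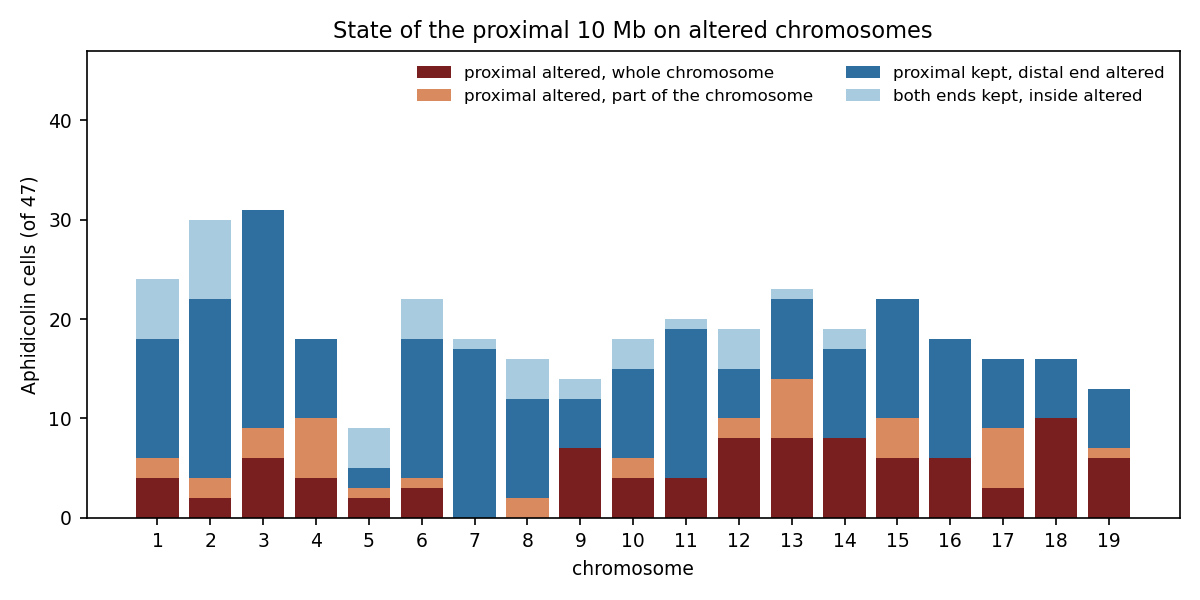
Number of Aphidicolin cells (y axis, of 47) in which each autosome (x axis) was altered, split by the state of its proximal 10 Mb. Red and orange count altered proximal regions (129 in all, none on chromosome 7 and 14 on chromosome 13), and the blues count kept proximal regions with the distal end or only the interior altered.

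Across the 19 regions, longer chromosomes had fewer altered proximal regions (Spearman's rho = -0.42 and Pearson's r = -0.33 with the number of windows) and more kept proximal regions beside an altered distal end (rho = 0.44, r = 0.44). For distal alterations the correlation was weaker (rho = 0.14, r = 0.17). These are descriptions over 19 chromosomes of the same cells, which share library and depth.

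Gains and losses balanced within embryos. An embryo had at least 1 altered cell in a given proximal region in 54 combinations of embryo and region, and in 50 of them it held both a gained and a lost cell. Averaged over the cells of an embryo, the proximal regions were at 1.82 to 2.21 copies (median 1.98, n = 114 combinations) in Aphidicolin and at 1.85 to 2.18 copies (median 2.02, n = 57) in DMSO. The ranges of these embryo averages were close, unlike those of single cells.

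To ask whether this balance lay between particular cells, each cell was given a mirror partner, the cell of the same embryo whose profile over all the other autosomes correlated with it most negatively. The chromosome under study had no part in the choice. In Aphidicolin cells these correlations ran from -0.86 to 0.10 (median -0.63), 42 of 47 cells had the same partner for all 19 chromosomes, and 44 were chosen back by their partner. In DMSO cells the correlations ran from -0.21 to 0.43 (median 0.08), and 6 of 20 were chosen back.

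Altered proximal regions were mirrored in the partner. Of the 129, 118 (91.5%, exact interval 85.3 to 95.7%) had the opposite call in the partner, 11 were kept there and 0 had the same call. Among the other cells of the same embryos, 58 of 748 (7.75%, exact interval 5.94 to 9.91%) had the opposite call. Per embryo the partner was opposite in 10 of 12, 20 of 20, 34 of 39, 14 of 14, 16 of 18 and 24 of 26 cases in Aphidicolin 1 to 6. The 118 count each of 59 pairs from both of its cells.

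Levels gave the same picture as calls. After a proximal gain at a median of 2.95 copies, the partner was at 1.04 copies and the remaining cells at 2.00. After a proximal loss at 1.03 copies, the partner was at 2.91 and the remaining cells at 2.00. The level of the partner minus that of the remaining cells, multiplied by the sign of the cell's own call, was -0.923 ± 0.0650 copies by embryo means (SD, n = 6, range -1.03 to -0.852, exact two-sided permutation p = 0.03125, adjusted p = 0.03125, negative in 6 of 6 embryos). The copies of the 59 pairs summed to a median of 3.96 (quartiles 3.81 and 4.13, range 3.58 to 4.66), and 57 pairs lay within 0.5 of 4.

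**Figure D5:**
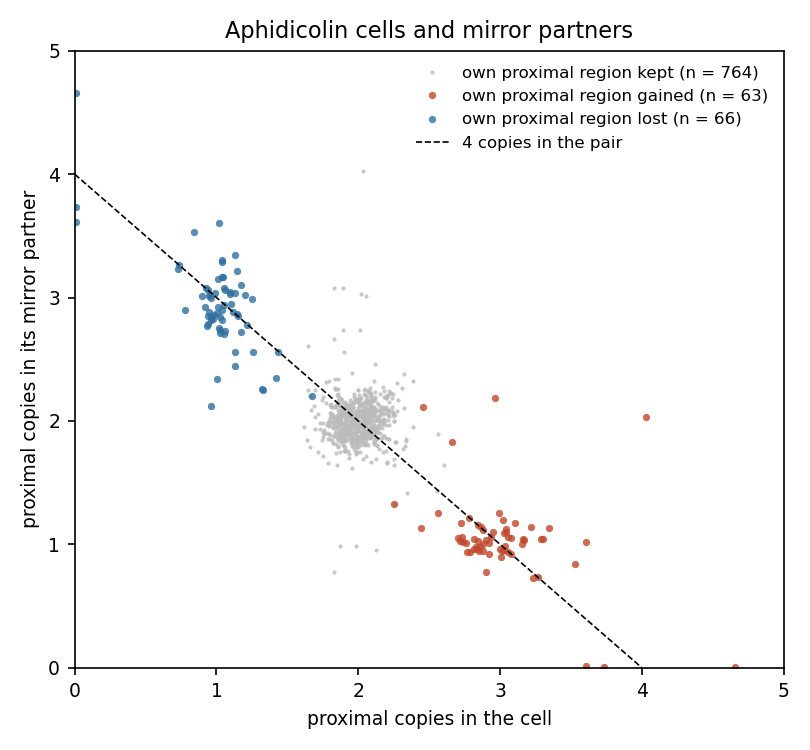
Copies of a proximal region in each Aphidicolin cell (x axis) against copies of the same region in its mirror partner (y axis), for 63 gained, 66 lost and 764 kept regions, with 1 point for each cell and region. The dashed line marks a sum of 4 copies. Gained and lost regions lie along the line near 3 against 1, and 3 lost regions near 0 copies face partners at 3.61, 3.73 and 4.66.

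The 5 pairs with the largest proximal difference came from 2 embryos. On chromosome 4, cell 50 of Aphidicolin 3 was at 4.66 copies and its partner, cell 49, near 0 with 235 reads (log2 -7.79), a difference of 4.65 copies. On chromosome 12, cell 68 of Aphidicolin 6 was at 3.73 copies and cell 69 near 0 with 45 reads in the region (log2 -7.63), on a chromosome lost whole. On chromosome 18, cell 72 of Aphidicolin 6 was at 3.61 copies and cell 71 near 0 with 85 reads (log2 -7.32), while the distal end of that chromosome was at 1.05 copies in cell 71. These were the 3 lowest proximal levels of the study.

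The remaining 2 pairs lay between cells 50 and 49. On chromosome 12 they were at 3.53 and 0.839 copies, and on chromosome 8 at 3.61 and 1.02 copies. Next among low levels were chromosome 15 of cell 72 (0.729 copies, partner cell 71 at 3.23) and chromosome 17 of cell 49 (0.733 copies, partner cell 50 at 3.27). The second highest level, 4.03 copies on chromosome 19 of cell 70 in Aphidicolin 6, had no such counterpart, since its partner, cell 67, was at 2.04 copies. It was 1 of the 11 unmatched regions, and in 2 other cells of that embryo the region was lost.

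Beside an altered distal end, a kept proximal region usually had a kept counterpart in the partner, as most proximal regions were kept in any cell. Of 197 such regions, 190 (96.4%) had a partner whose proximal region was also kept, against 981 of 1146 (85.6%) in the other cells of the embryo and 764 of 893 over all Aphidicolin cells. This difference was not tested. In 184 the distal end of the partner was altered in the opposite direction, and both held in 178. In 10 the partner was kept at both ends, and in 7 the partner's proximal region was altered.

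The single altered proximal region of a DMSO cell was on chromosome 8 of cell 24 in DMSO 3. Its level was 0.36 on the log2 scale, or 2.57 copies, the gain spanned the first 106 Mb, and the distal end was at 2.12 copies. The partner, cell 21, was at 1.98 copies. Some proximal regions called kept in cell 24 lay further out on the log2 scale. They were at 0.44 on chromosome 14, 0.39 on chromosome 7 and -0.43 on chromosome 5. By level, the gain on chromosome 8 therefore did not stand apart from kept regions of its own cell. The weight of the shared profile was 0.734 in cell 24, against 1.27 in the median DMSO cell, and its part in this call was not tested. The other 6 DMSO chromosomes with a call kept their proximal region at 1.81 to 2.16 copies. They were chromosome 12 in cells 13, 14, 17 and 18 and chromosome 7 in cell 17, all of DMSO 2, and chromosome 8 in cell 19 of DMSO 3, with 10 to 18 Mb altered in each.

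Aphidicolin and DMSO embryos were also compared window by window with limma, adjusted by Benjamini-Hochberg over all autosomal windows. For the share of an embryo's cells with an altered window, 0 of the 180 proximal windows tested passed an adjusted p of 0.05, against 27.7% of all windows tested (662 of 2393), each higher in Aphidicolin. That background was not stable: with any 1 DMSO embryo left out limma called 22 windows, and with the values as deposited 0 (428 at an unadjusted p under 0.05), while the proximal count was 0 in each of these settings. The 10 windows of chromosome 7 were 0 in every embryo and were not tested. The median difference was 0.155 over proximal windows and 0.256 over all windows, as shares of an embryo's cells. In no proximal window did the embryos of the treatments separate without overlap, against 14.2% of all windows.

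The nearest to the threshold were the 10 windows of chromosome 13, which share 1 call and thus count as 1 region. A mean share of 0.298 in Aphidicolin stood against 0 in DMSO (SE 0.131, limma adjusted p = 0.0730), and these were the only proximal windows with an unadjusted p under 0.05 by limma. Over the alternatives that kept all embryos, the lowest adjusted p of any proximal window ran from 0.0602 to 0.264 by limma. Without Aphidicolin 4, in which no cell was altered there, the adjusted p by limma was 0.0201 and all 10 were called, and with any other embryo left out their adjusted p by limma was between 0.0639 and 0.183.

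For the mean level of an embryo, 0 of 190 proximal windows passed by limma, against 0% of all windows. By unadjusted p, 13 proximal windows in 8 regions and 158 of all 2403 windows were under 0.05. The median difference in log2 level, Aphidicolin less DMSO, was -0.05 over proximal windows and -0.12 over all windows.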

How the data were processed

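The tables deposited by the authors hold, per cell and 200-kb bin, log2 values of read density relative to the median of that cell, with genome build mm9 per the submitters' processing notes. The aligner, read filters and conversion into log2 values, not given in the sources used here, could affect the levels. Metadata deposited by the authors add a noise score and marks, coded as a score of 1 or 0, for passing and for manual filtering, and name the embryo of each cell. The members and the lists of named regions were chosen with earlier results of these data known.

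Whole reads were recovered from 100% of values within 0.01 reads. Bins without a value in a cell were set to 0.5 reads. Windows of 1 Mb took the median of 5 bins. A profile common to all cells, the mean of the medians of the treatments, was removed by Huber regression, and each cell was centred on its autosomal median, taken as 2 copies. Segments came from penalised least squares (penalty 4 times noise variance times log window number, minimum length 10 Mb, neighbours within 0.35 merged, values below -3 set to it for the segmentation). The level of a region is the median over its 10 windows, and its copies are 2 times the antilog of that level.

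Within-embryo differences were tested by exact two-sided permutation of their signs over the 6 Aphidicolin embryos (64 patterns), adjusted by Benjamini-Hochberg over 4 tests. Treatments were compared on embryo values with limma 3.58.1 in R 4.3.3 over all autosomal windows. Intervals are exact binomial (Clopper-Pearson) at 95%. Amplified reads are not independent molecules, so intervals and counting errors cover counting only. Other steps used Python 3.11.15 with numpy 2.4.6, scipy 1.17.1 and pandas 2.3.3. Segmentation and limma were tested on simulated data. The simulation for limma gave both treatments the same spread, unlike the DMSO shares here, which hardly varied. It therefore does not bear on the unstable count over all windows. The breaks simulated for segmentation stayed clear of the chromosome ends.

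Named with values were the 4 regions altered in most and the 4 altered in fewest Aphidicolin cells (11 with ties), each DMSO call, the 5 lowest and 5 highest Aphidicolin levels, the 5 largest mirror differences and the 5 kept regions with the longest altered rest. Chromosome 3 and the 11 unmatched regions were singled out after their values were seen. Alternatives covered the common profile, the width, the call limits, segment length, calls without segments, the baseline, shared events and leaving out each embryo. Leaving out events shared in the same direction by more than 50% of an embryo's cells changed none of the values. Events shared by fewer cells, such as the chromosome 12 calls in DMSO 2, stayed in. A width of 5 Mb could not change a proximal or distal call, since segments span at least 10 Mb. X was used only as a level.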

Additional observations from a re-analysis of the deposited data

How the results depend on the processing

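No paired analysis was possible because embryos of the 2 treatments carry no numbers in common that mark a shared origin. With the values as deposited, the proximal to middle difference was -12.3 points (adjusted p = 0.0625, exact permutation) and the whole-chromosome share of altered proximal regions 44.9%. With any 1 Aphidicolin embryo left out, the exact permutation p cannot fall below 0.0625. The differences then ran from -20.7 to -18.5 points against the distal end, from -13.5 to -9.87 against the middle, from 60.2 to 65.5 points for kept regions and from -0.937 to -0.901 copies for mirrored levels. The whole-chromosome share ran from 65.5 to 75.5%. The limma count of proximal windows with a higher altered share ran from 0 to 10 with 1 embryo of either treatment left out, and the 10 were called without Aphidicolin 4. Under the other alternatives the 4 within-embryo differences kept their sign and, apart from the proximal to middle one with deposited values, an adjusted p under 0.05 by exact permutation. They covered -21.3 to -18.9, -12.7 to -11.2, 40.2 to 68.4 points and -0.968 to -0.619 copies, deposited values included. Of these alternatives, the stricter whole-chromosome rule and leaving out the 1 cell under 1 M reads were chosen after seeing the data. Over all windows, the limma count of 662 fell to 22 without any 1 DMSO embryo, to 347 without Aphidicolin 2, to 383 without Aphidicolin 6, to 230 with calls without segments and to 0 with deposited values. Altered cells of named regions moved by over 1.5 times on chromosome 2 (7 cells) and chromosome 7 (1 cell) with deposited values and on chromosome 6 (2 cells) with stricter limits. By counting error alone (0.02, log2), depth was not limiting for a change of 1 copy over 10 Mb. The SD of proximal levels on chromosomes without any call was larger, 0.0905 in Aphidicolin and 0.113 in DMSO cells. Shorter changes near the centromere were not analysed here.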
